A study of Rattus norvegicus with 64 samples.

Results

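The 10 genes described here encode the potassium channels, calcium channels and calcium store proteins of smooth muscle. They were chosen by symbol, with earlier results of these data known, and all 10 were on the array, with 18 of its 30367 gene probes and as 10 of its 15715 named genes. Kcnma1 and Kcnmb1 encode the pore and the auxiliary subunit of the large conductance calcium-activated potassium channel. Kcnj8 and Abcc9 encode the pore and the regulatory subunit of the ATP-sensitive potassium channel. Cacna1c and Cacnb2 encode the pore and an auxiliary subunit of the L-type calcium channel. Ryr2 and Itpr1 encode the channels through which calcium leaves the sarcoplasmic reticulum, Atp2a2 the pump that returns it, and Pln, phospholamban, the inhibitor of that pump.

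In smooth muscle of the bladder wall, depolarization opens L-type channels and the calcium that enters, together with calcium released from the sarcoplasmic reticulum, drives contraction. Calcium sparks and the rise in cell calcium open large conductance potassium channels, which repolarize the membrane and limit contraction, while the ATP-sensitive channels tie membrane potential to the metabolic state. The reticulum is refilled by the pump, which phospholamban slows until it is phosphorylated.

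RNA came from the reconstructed bladder wall of male Wistar rats after hemicystectomy and augmentation with a graft of about 1 cm2. The graft was bladder acellular matrix (BAM), which is bladder wall freed of its cells, either unseeded or seeded with cultured adipose-derived stem cells (ADSCs in the labels, ASCs below), 10000000 per graft. The cells were taken from retroperitoneal fat of other male Wistar rats, 10 weeks old, and the age of the operated rats is not given in the sources used here. Walls were taken 7, 30, 90 and 180 days after surgery, which gave 8 groups of 8 one-color arrays, labelled as biological replicates, 64 in all. The p-values below measure the spread between these arrays. No group without a graft or without surgery is used here, so the unseeded BAM of the same day was the control.

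The 8 arrays of a group filled 1 slide, with no other group on it, so slide and group cannot be told apart for any comparison below. Arrays of 7 and 30 days carried one scan date and those of 90 and 180 days another. On the first 32 arrays 73.3% to 95.6% of gene spots were well above background, and on the other 32 arrays 35.5% to 64.6%. The median local background of an array ran from 42 to 52 intensity units on the first and from 99 to 366 on the others. At 90 days it differed between the grafts, from 99 to 120 with ASCs and from 321 to 366 in BAM. Its part in the graft differences of that day was not tested. A step from 30 to 90 days therefore crosses the scan dates, and days and scan dates cannot be told apart there. Of 11 smooth muscle genes on the array (contractile proteins and their partners such as Acta2, Myh11 and Cnn1), 10 were well above background on all 8 arrays of every group, and Ldb3 on only 6 of 64 arrays. Since whole wall was measured, fewer muscle cells and less RNA per muscle cell cannot be told apart.

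All levels are log2 values of the processed signal after scaling of each array to its 75th percentile, which is at 0. Levels of different probes are not set against each other. Each gene is given by its brightest probe unless another is named. That probe was well above background on all 64 arrays for Kcnj8, Abcc9, Itpr1, Atp2a2 and Pln, on 63 for Kcnma1 and Ryr2, on 61 for Cacna1c, on 59 for Kcnmb1 and on 7 for Cacnb2. A difference was called at a Benjamini-Hochberg adjusted p below 0.01 over all probes and a fold above 1.5, from limma fitted to all 64 arrays. Where groups are said not to overlap, the share of all probes without overlap is not given here, so such separation is a description only.

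The 300 bases around the start sites of Kcnma1 and Kcnmb1 are shown because a result below sets these partner genes apart. That result rests on the brightest Kcnma1 probe and was not called with the second. The bases of Abcc9 are shown because they held the only motif match among the 10 genes. The sequences run from 250 bases before to 50 after the start and come from RefSeq on build GRCr8, in which windows of all 10 genes were found and Cacnb2 had a second one. Capitals mark the match to a MEF2 site, bound by muscle transcription factors, and nothing else.
Kcnma1, chr15:351675-351974, plus strand: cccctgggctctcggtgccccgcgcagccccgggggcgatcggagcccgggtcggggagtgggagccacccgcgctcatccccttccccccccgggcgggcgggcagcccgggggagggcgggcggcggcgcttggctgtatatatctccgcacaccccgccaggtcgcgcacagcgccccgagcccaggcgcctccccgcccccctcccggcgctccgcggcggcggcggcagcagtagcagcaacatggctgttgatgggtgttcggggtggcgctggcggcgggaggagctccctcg
Kcnmb1, chr10:19061849-19062148, plus strand: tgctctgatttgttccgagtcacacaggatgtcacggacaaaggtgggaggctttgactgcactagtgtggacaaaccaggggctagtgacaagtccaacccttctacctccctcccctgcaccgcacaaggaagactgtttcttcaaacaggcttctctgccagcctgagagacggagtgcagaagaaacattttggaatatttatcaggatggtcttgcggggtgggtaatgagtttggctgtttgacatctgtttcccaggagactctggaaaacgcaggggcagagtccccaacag
Abcc9, chr4:177386299-177386598, minus strand: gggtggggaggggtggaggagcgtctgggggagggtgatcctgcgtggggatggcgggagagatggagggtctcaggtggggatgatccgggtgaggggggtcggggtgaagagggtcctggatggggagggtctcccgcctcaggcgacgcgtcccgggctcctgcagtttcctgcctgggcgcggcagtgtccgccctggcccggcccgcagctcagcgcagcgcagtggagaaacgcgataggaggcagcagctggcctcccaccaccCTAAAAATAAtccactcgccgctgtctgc
The Kcnma1 window is 78.3% G and C, against 51.7% for Kcnmb1 and 69.0% for Abcc9. Both strands were searched for the CArG box, bound by serum response factor at contractile genes, and for the MEF2 site, which share no sequence. No CArG box was found in the windows of the 10 genes, where 1.64% of 33469 rat windows held one. The MEF2 match of Abcc9 lay at bases 272 to 281 of its window, after the start site, and 3.29% of all windows held such a match. The Kcnma1 and Kcnmb1 windows had neither.

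Kcnma1, the pore of the large conductance channel, was the one gene of the 10 that was called between the grafts, and it was lower with ASCs at 7 days. On the 8 BAM arrays its level ranged from -1.39 to 1.03 with a median of -1.08, and on the 8 arrays with ASCs from -3.13 to -2.19 with a median of -2.52. All arrays with ASCs lay below all BAM arrays. The BAM arrays themselves fell apart into 5 between -1.39 and -1.01 and 3, replicates 6, 7 and 8, at 0.97, 1.03 and 0.56. The difference was -2.11 ± 0.24 (standard error, n = 8 and 8), a 4.31-fold lower level, with adjusted p = 1.28e-09 by limma.

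At 30 days BAM ranged from -0.47 to 0.68 with a median of -0.03 and ASCs from -1.06 to -0.32 with a median of -0.78. Of the arrays with ASCs, 7 of 8 lay below all BAM arrays. The difference of -0.76 ± 0.24 was not called (adjusted p = 0.0365). At 90 days the groups overlapped, with medians of -1.18 for BAM and -1.52 for ASCs, and the difference was -0.29 ± 0.24 (adjusted p = 0.315). At 180 days the order was the other way round. BAM ranged from -1.91 to -1.19 with a median of -1.45, and ASCs from -1.02 to -0.26 with a median of -0.57, so that every array with ASCs lay above every BAM array. This difference, 0.88 ± 0.24, had an adjusted p of 0.0141 by limma and was not called.

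The change of the graft difference between days was itself tested. From 7 to 180 days it moved by 2.99 ± 0.34 (adjusted p = 5.30e-10), a contrast that was added after the data were seen. Between 90 and 180 days it moved by 1.17 ± 0.34 (adjusted p = 0.00876). The latter call was lost with 22 of 32 single arrays left out, with the adjusted p reaching at most 0.0183, and under 6 alternatives, which were normexp, quantile normalization, the percentile over detected probes, the value table, the next brightest probe (-0.52) and the replicate block (adjusted p = 0.0124). From 7 to 30 days the change was 1.35 ± 0.34 and was not called (adjusted p = 0.0132), nor was the change from 30 to 90 days, 0.46 ± 0.34 (adjusted p = 0.289). Of the 10 genes, 0 were called for the change from 7 to 30 days, where 0.985% of probes were, and 0 from 30 to 90 days, where 9.99% were. From 90 to 180 days 1 was called, where 9.79% of probes were, and from 7 to 180 days 1, where 8.48% were, and both times it was Kcnma1. Outside the 10 genes, 4 of 5 listed endothelium genes were called higher for the change from 7 to 180 days (list median 1.21). Of 6 listed urothelium genes 3 were called lower (list median -2.20). Pln, the next largest of the 10 from 7 to 180 days, was at -1.53 ± 0.50 (adjusted p = 0.0272) and was not called, nor was it from 90 to 180 days, at -1.23 ± 0.50 (adjusted p = 0.0687).

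**Figure D1:**
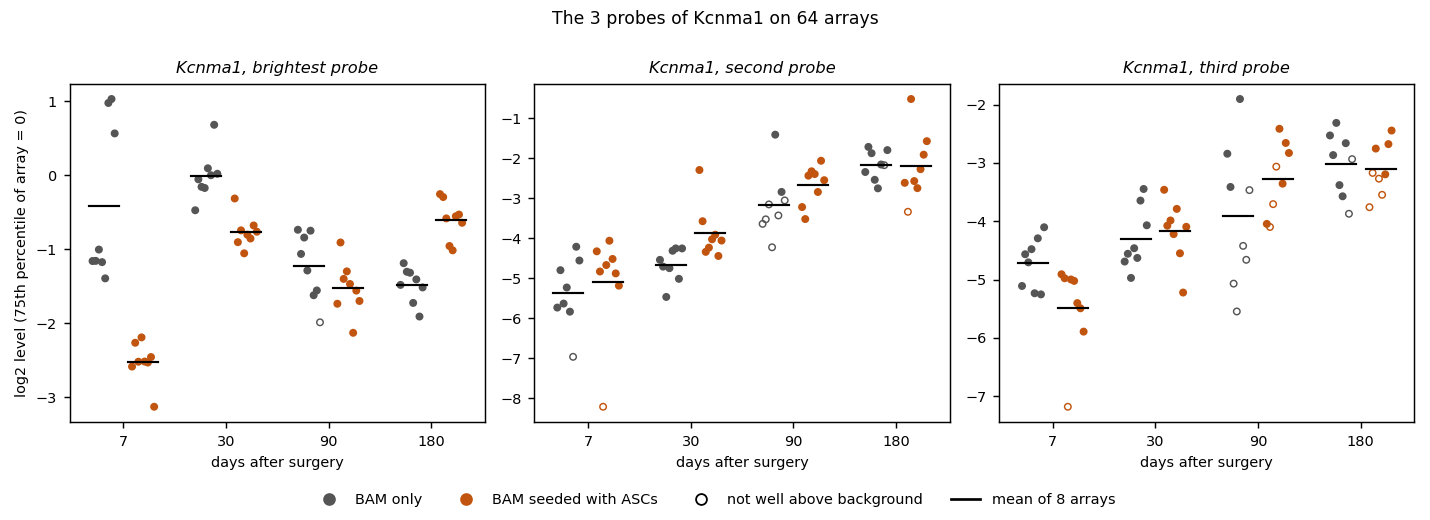
Level of Kcnma1 by each of its 3 probes (y axis, log2 with the 75th percentile of the array at 0) against days after surgery (x axis), with 1 point per array in the order of replicate number, gray for BAM only, orange for BAM seeded with ASCs and open where the spot was not well above background; bars are means of 8 arrays. With the brightest probe all orange points at 7 days lie below all gray ones and at 180 days above them, while the second probe and the third show overlapping groups at both days.

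The 3 Kcnma1 probes did not give the same pattern, and the results above belong to the brightest probe. The array names all 3 by the same transcript. The second probe was well above background on 54 arrays and the third on 49. At 7 days the second probe gave a difference of 0.28 ± 0.39 and the third -0.77 ± 0.34, with adjusted p of 0.670 and 0.110, and at 180 days -0.02 ± 0.39 and -0.09 ± 0.34. The second probe thus differs in sign from the first at all 4 days.

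Across the 64 arrays, after the group means were taken off, the first and second probes correlated at r = 0.09 and the first and the third at 0.23, while the second and the third correlated at 0.57. All points of these correlations share arrays and slides. Over the 8 group means the second and the third correlated at r = 0.94, and the first with them at -0.09 and 0.21. Over days too the probes parted. From 30 to 90 days the first probe fell in both grafts, by 1.22 in BAM and 0.76 with ASCs, while the second rose with ASCs by 1.19 ± 0.39 (adjusted p = 0.00885) and was well above background there on all 8 arrays of both days. In BAM the second was called as well, in the same direction, but it was well above background on 8 of 8 arrays at 30 days and 2 of 8 at 90 days, so no size is given. Over that step background itself moved, and the second Ryr2 probe, not well above background on any array, had BAM means of -8.03 and -5.02 and means with ASCs of -7.95 and -6.01. Which transcripts each probe binds was not tested, since no probe sequences were at hand.

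Other tissue markers moved between the grafts at 7 days, where 7.73% of all probes were called in either direction. At 7 days 4 of 6 urothelium genes rose with ASCs, with a list median of 2.04, among them the uroplakins Upk1a by 2.36 and Upk3a by 2.28. The mean level of that list ran from -2.60 to 2.18 on BAM arrays and from 0.71 to 2.86 with ASCs. The endothelial genes Vwf and Kdr fell by 1.00 and 0.68, 2 of 5 listed, with list means from 0.20 to 1.06 on BAM and -0.26 to 0.31 with ASCs. In the 3 BAM arrays with the high Kcnma1 level, the urothelium mean was -0.94, -2.60 and 2.18, so that replicates 6 and 7 were the lowest of the group and replicate 8 the highest. None of the 11 smooth muscle genes was called at 7 days by limma (list median 0.35). The part of these tissues in the Kcnma1 result was not tested.

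Kcnmb1, whose product makes the large conductance channel more sensitive to calcium, did not follow the brightest Kcnma1 probe. At 7 days BAM ranged from -4.54 to -2.58 with a median of -3.61, and ASCs from -3.57 to -2.41 with a median of -3.24. The difference of 0.57 ± 0.31 was not called (adjusted p = 0.213), nor were those of 0.49, 0.41 and -0.30 at 30, 90 and 180 days. Groups overlapped at every day. The second Kcnma1 probe gave 0.28, 0.80, 0.49 and -0.02 at 7, 30, 90 and 180 days, not called at any day. Those values have the same signs as the Kcnmb1 differences.

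The level of Kcnmb1 minus that of Kcnma1 was formed on each array and compared between the grafts by two-sided exact permutation over 12870 splits of 8 against 8 arrays. At 7 days it ranged from -5.56 to -1.42 on BAM arrays, with a median of -2.58, and from -1.09 to 0.18 with ASCs, with a median of -0.62. The ranges did not overlap. The difference was 2.68, with an exact permutation p = 0.000155, the smallest these splits can give, and 0.00311 after adjustment over 20 tests of 5 pairs at 4 days, called below 0.05. At 30 days it was 1.25 (adjusted p = 0.00466, exact permutation), with BAM from -4.42 to -2.90 and ASCs from -3.07 to -1.72. At 90 days it was 0.71 and not called (adjusted p = 0.132, exact permutation).

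At 180 days the sign turned to -1.17 (adjusted p = 0.0394, exact permutation). There BAM ran from -1.096 to -0.09 with a median of -0.50, and ASCs from -2.83 to -0.30 with a median of -1.98. This last call was lost with any of 11 of the 16 arrays left out. With the second Kcnma1 probe 0 of these 3 differences were called, and they were 0.28, -0.31 and -0.27. The other 4 pairs, which were Abcc9 minus Kcnj8, Cacnb2 minus Cacna1c, Ryr2 minus Itpr1 and Pln minus Atp2a2, gave 0 calls in 16 tests. Before adjustment p was below 0.05 in 4 of those 16.

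**Figure D2:**
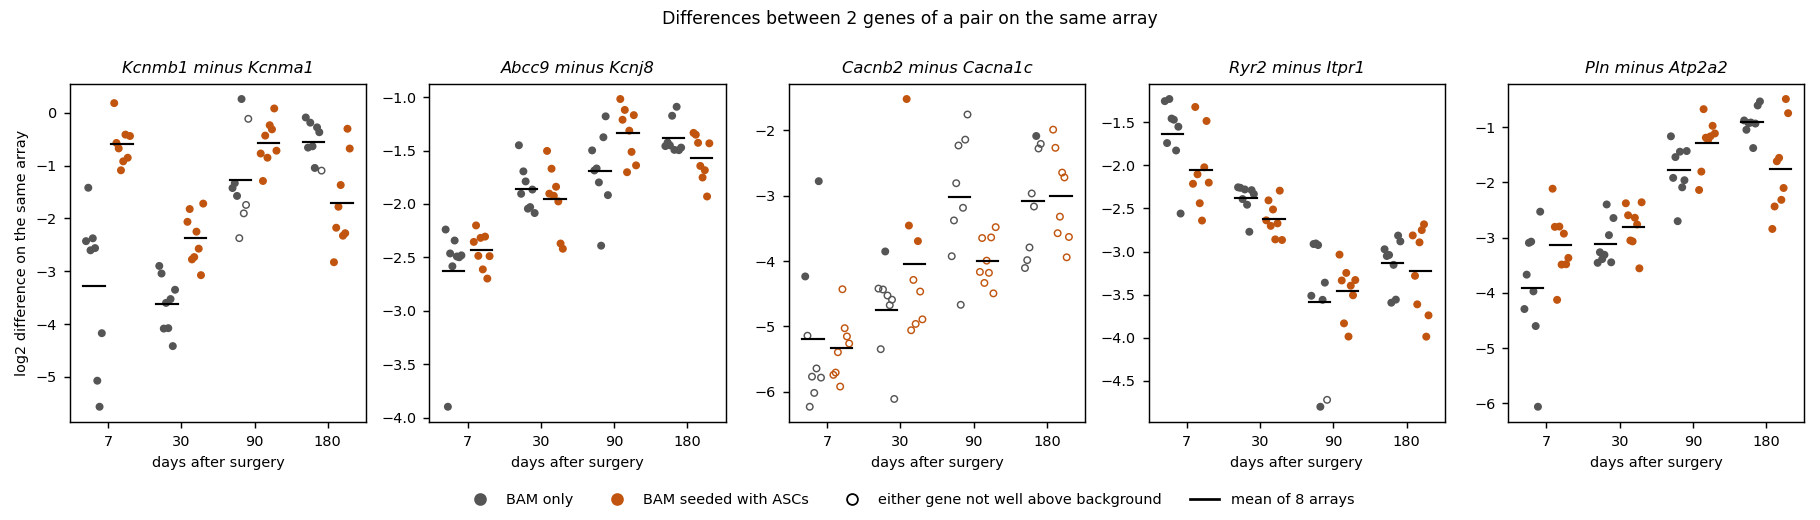
Difference in log2 level between both genes of a pair on the same array (y axis) against days after surgery (x axis), gray for BAM only and orange for BAM seeded with ASCs, with bars at the mean of 8 arrays and open points where either gene was not well above background. In the panel of Kcnmb1 minus Kcnma1 (brightest probe) the orange points lie above the gray ones at 7 days and mostly below them at 180 days.

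Among the other 9 genes 0 were called between the grafts at any day. At 7 days 1 of 10 was called, where 7.73% of all probes were, with a median difference of -0.18 over the 10 genes and -0.16 over all probes. At 30 days 0 of 10 were called and 1.67% of probes, with medians of 0.09 and 0.11. At 90 days, where 12.5% of probes were called, 0 of 10 were, with medians of 0.14 and -0.27. At 180 days 0 of 10 were called and 2.44% of probes, with medians of -0.09 and 0.06.

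**Figure D3:**
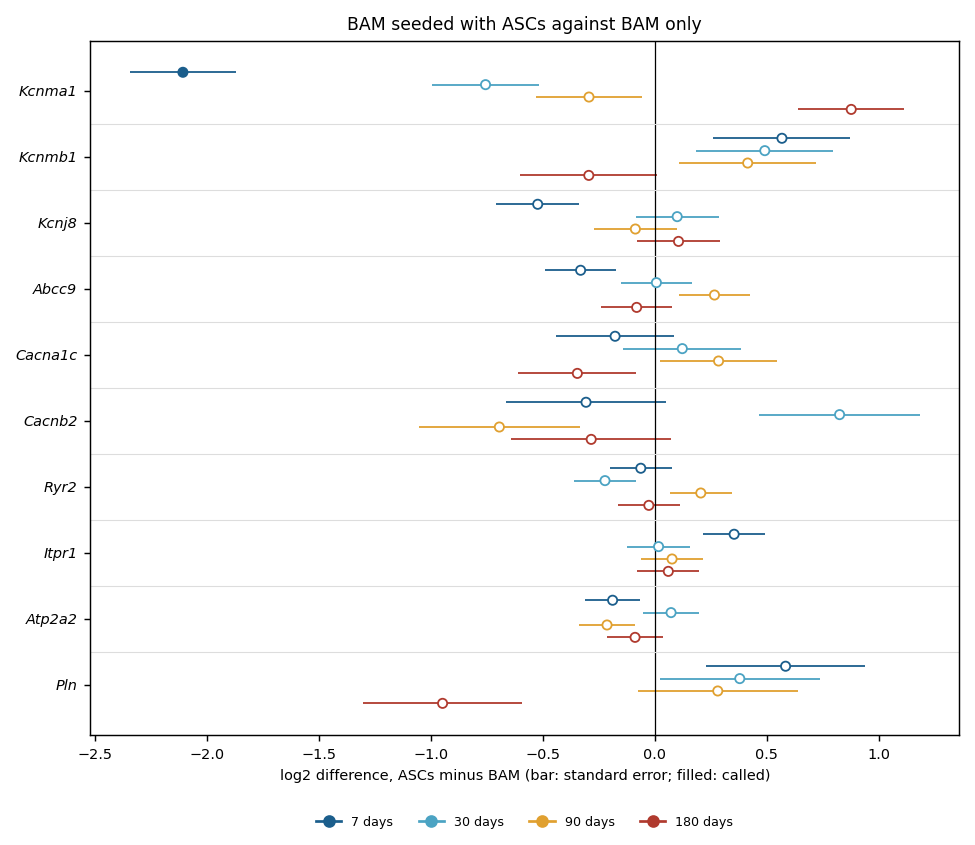
Log2 difference between the seeded and the unseeded graft (x axis, ASCs minus BAM) for the 10 genes (y axis) at 7, 30, 90 and 180 days, with the standard error from limma as the bar and a filled point where the difference was called. Kcnma1 at 7 days, at -2.11, is the one filled point.

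Kcnj8, the pore of the ATP-sensitive channel, was at 1.78 to 3.25 on BAM arrays at 7 days, with a median of 2.07, and at 1.46 to 2.06 with ASCs, with a median of 1.63. Of the arrays with ASCs 5 lay below all BAM arrays. The difference of -0.52 ± 0.19 had an adjusted p of 0.0403 and was not called, and those of 30, 90 and 180 days were 0.10, -0.09 and 0.11. Abcc9, its regulatory subunit, differed by -0.33 ± 0.16 at 7 days and by 0.01, 0.27 and -0.08 at the later days, with adjusted p of 0.150 or more. Its levels at 7 days ran from -0.65 to -0.03 in BAM and from -1.16 to -0.32 with ASCs.

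For the L-type channel, Cacna1c differed by -0.18, 0.12, 0.28 and -0.35 at 7, 30, 90 and 180 days, with a standard error of 0.26 at each. The 8 arrays with ASCs at 180 days covered -3.14 to -1.15 while BAM covered -2.44 to -1.49, so 2 of the former lay above and 4 below all BAM arrays. The auxiliary subunit gene Cacnb2 was dim. It was well above background on 2, 1, 0 and 1 of the 8 BAM arrays at 7, 30, 90 and 180 days and on 0, 3, 0 and 0 with ASCs, so its differences of -0.31, 0.83, -0.70 and -0.28 carry little about the gene.

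The store release channels differed little. Ryr2, the ryanodine receptor, differed by -0.06, -0.22, 0.20 and -0.03 with a standard error of 0.14. Itpr1, the receptor for inositol trisphosphate, was at 0.71 to 1.34 in BAM at 7 days, with a median of 0.97, and at 0.97 to 1.51 with ASCs, with a median of 1.37. There 5 of 8 arrays with ASCs lay above all BAM arrays, and the difference of 0.35 ± 0.14 was not called (adjusted p = 0.0684). Its later differences were 0.02, 0.08 and 0.06. The second Itpr1 probe gave 0.56 at 90 days, with an adjusted p of 0.00682 and a fold below 1.5.

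Atp2a2, the pump, had levels within 2.87 to 4.50 on all 64 arrays and differed by -0.19, 0.07, -0.21 and -0.09 (standard error 0.12). Pln differed by 0.58, 0.38, 0.28 and -0.95 (standard error 0.36). At 180 days its level ran from 1.67 to 2.77 in BAM, with a median of 2.32, and from 0.12 to 3.00 with ASCs, with a median of 1.27. Of the arrays with ASCs 6 lay below and 2, replicates 7 and 8, above all BAM arrays, and the adjusted p was 0.134. The same replicates 7 and 8 had the highest mean level of the smooth muscle list in their group, 3.64 and 3.67, and were also highest in Kcnmb1, at -0.84 and -1.32, and in Cacna1c, at -1.15 and -1.21. The part of muscle content in these values was not tested.

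**Figure D4:**
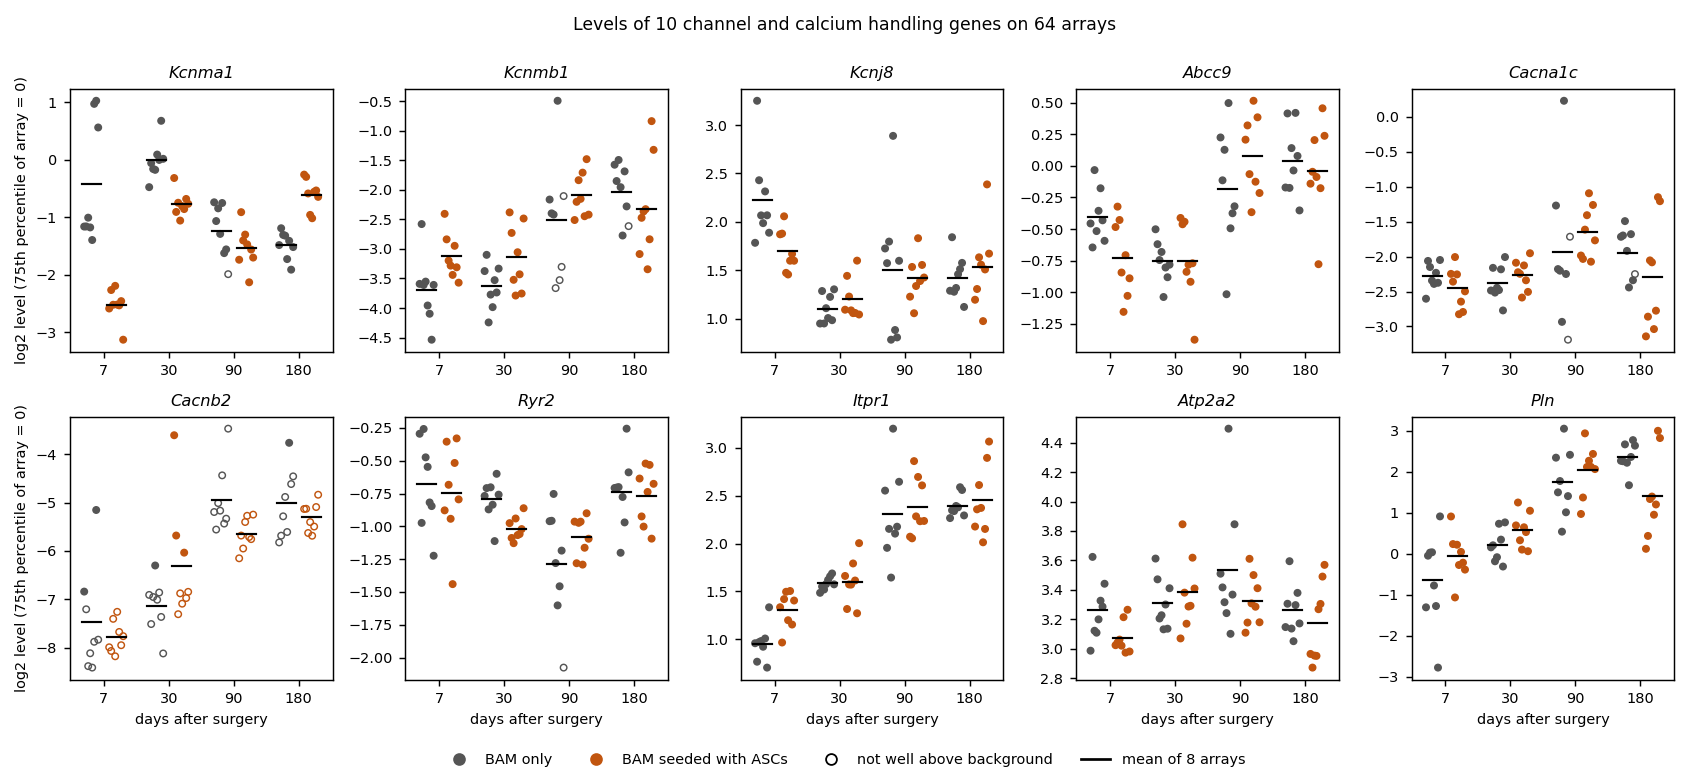
Log2 level of the 10 genes on the 64 arrays (y axis, 75th percentile of the array at 0, each panel with its own scale) against days after surgery (x axis), gray for BAM only, orange for BAM seeded with ASCs, open where the probe was not well above background, with bars at the mean of 8 arrays. Groups overlap in all panels at all days except Kcnma1 at 7 and 180 days, and the means of Pln, Itpr1 and Kcnmb1 are higher at 90 and 180 days than at 7 days in both grafts.

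More of the 10 genes were called across days than between grafts, mostly from 30 to 90 days, a step that crosses the scan dates. There 35.2% of all probes were called higher in BAM and 17.8% with ASCs. Each graft is given by its own values, and steps that share a day share those arrays. From 7 to 30 days Kcnj8 fell in BAM by 1.12 ± 0.19 (adjusted p = 5.05e-06), from a range of 1.78 to 3.25 to one of 0.95 to 1.30 that did not overlap it. With ASCs its difference was -0.50 ± 0.19 (adjusted p = 0.0376), not called. Itpr1 rose in BAM by 0.63 ± 0.14 (adjusted p = 0.000514), from 0.71 to 1.34 up to 1.49 to 1.69, again with no overlap. Its second probe gave 0.41 for this step and was not called.

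In BAM, 1 of 10 genes was called higher over that step, where 4.44% of probes were, and 1 lower, where 4.21% were. With ASCs, 2 of 10 were called higher, where 6.67% of probes were, and 0 lower, where 1.4% were. One was Kcnma1, which rose by 1.76 ± 0.24 (adjusted p = 1.14e-07), with no overlap between -3.13 to -2.19 at 7 days and -1.06 to -0.32 at 30 days. The third Kcnma1 probe rose as well, by 1.31 ± 0.34 (adjusted p = 0.00319), and the second showed 1.23 (adjusted p = 0.0156), not called. The other was Cacnb2, well above background on 0 and then 3 of 8 arrays, so no fold is given. That call (adjusted p = 0.00171) was lost without ASCs replicate 1 of 30 days (adjusted p = 0.0110) and with several other ways of processing.

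From 30 to 90 days, across the scan dates, 4 of 10 genes were called higher in BAM, where 35.2% of probes were, and 1 lower, where 9.49% were. With ASCs 4 were called higher, where 17.8% of probes were, and 1 lower, where 10.3% were. The median change was 0.51 in BAM and 0.63 with ASCs over the 10 genes, and 0.30 and 0.11 over all probes.

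**Figure D5:**
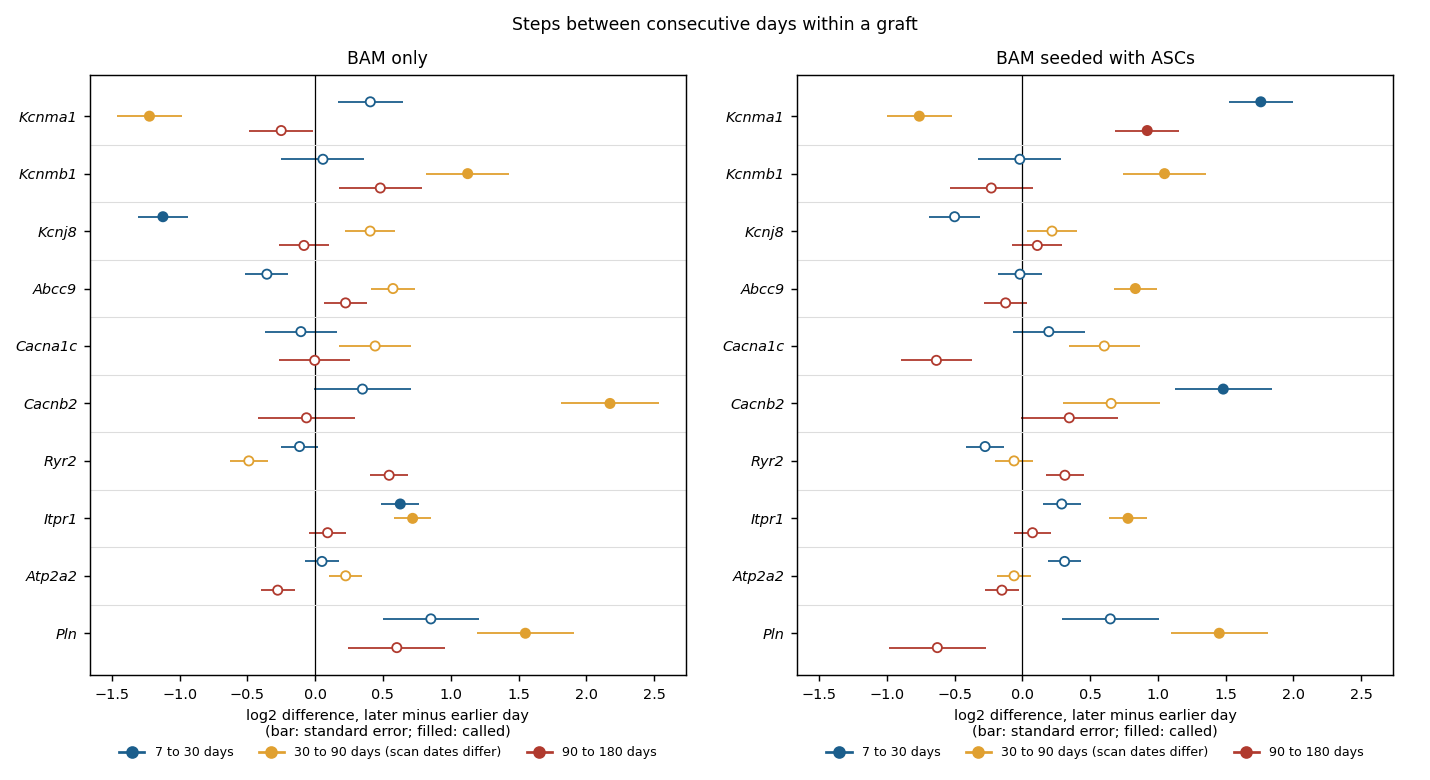
Log2 difference between consecutive days (x axis, later minus earlier) for the 10 genes (y axis) in BAM only (left) and BAM seeded with ASCs (right), with the standard error from limma as the bar and a filled point where the difference was called. Kcnmb1, Itpr1 and Pln are filled to the right and Kcnma1 to the left for the step from 30 to 90 days in both grafts.

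Pln rose by 1.55 ± 0.36 in BAM (adjusted p = 0.000152) and by 1.45 ± 0.36 with ASCs (adjusted p = 0.000634). Its BAM level went from -0.31 to 0.77 at 30 days, with a median of 0.18, up to 0.54 to 3.05 at 90 days, with a median of 1.64, and with ASCs from a median of 0.59 to one of 2.12. In each graft 7 of 8 arrays of 90 days lay above all those of 30 days. Itpr1 rose by 0.72 ± 0.14 in BAM (adjusted p = 1.08e-05) and by 0.78 ± 0.14 with ASCs (adjusted p = 6.20e-06), where the 8 arrays of 90 days, at 2.05 to 2.86, lay above the 8 of 30 days, at 1.27 to 2.00. Its second probe rose by 0.88 with ASCs (adjusted p = 1.13e-05) but showed 0.25 in BAM, not called.

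Kcnmb1 rose by 1.13 ± 0.31 in BAM (adjusted p = 0.00119) and by 1.05 ± 0.31 with ASCs (adjusted p = 0.00374). In BAM at 90 days it was well above background on 4 of 8 arrays only. With ASCs the call was lost without replicate 4 or 7 of 30 days or replicate 7 of 90 days, with values of 0.96 each, and in BAM in a separate fit of these groups (adjusted p = 0.0141). Abcc9 rose with ASCs by 0.83 ± 0.16 (adjusted p = 2.00e-05), from -1.38 to -0.41 up to -0.37 to 0.52 with no overlap, and in BAM its change of 0.57 ± 0.16 (adjusted p = 0.00146) stayed just under the 1.5-fold limit.

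Kcnma1 by its brightest probe, against the direction of its second, fell by 1.22 ± 0.24 in BAM (adjusted p = 1.20e-05) and by 0.76 ± 0.24 with ASCs (adjusted p = 0.00666). The call with ASCs was lost without replicate 1, 3 or 7 of 30 days or replicate 1, 6, 7 or 8 of 90 days, with values between -0.76 and -0.67. Cacnb2 was called in BAM at 2.17 ± 0.36, but it was well above background on 1 of 8 arrays at 30 days and 0 of 8 at 90 days, so no fold is given, and under quantile normalization the value was 0.23. Ryr2 showed -0.49 ± 0.14 in BAM (adjusted p = 0.00186), below the fold limit. Atp2a2 and Cacna1c were not called at this step in either graft, although the second Atp2a2 probe rose by 0.71 in BAM (adjusted p = 0.00559). The second Ryr2 probe was called here and between the grafts at 90 days, but it was not well above background on any of 64 arrays.

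Smooth muscle contractile genes moved over the same step, 8 of 11 higher in BAM (list median 0.85) and 9 of 11 with ASCs (list median 1.35). Of all probes, 35.2% were called higher in BAM and 17.8% with ASCs. The 8 in BAM include Ldb3, well above background on 0 of 8 arrays at 30 days and 1 of 8 at 90 days. Tagln and Mylk, also among them, were each saturated on 7 of 8 BAM arrays at 90 days. In BAM the smooth muscle list mean, Ldb3 included, went from 1.38 to 2.14 at 30 days to 1.92 to 3.67 at 90 days. With ASCs it went from 1.01 to 2.34 to 2.65 to 3.57. The group mean of Ldb3 itself went from -7.39 to -4.64 in BAM and from -6.39 to -5.54 with ASCs. The share of muscle in the wall as a part of these changes was not tested.

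From 90 to 180 days 0 of 10 genes were called in BAM, where 9.39% of probes were. By unadjusted p under 0.05, Ryr2 at 0.55 ± 0.14 (adjusted p = 0.00206, fold below 1.5) and Atp2a2 at -0.28 ± 0.12 stood out. With ASCs 1 of 10 was called, where 4.14% of probes were. It was Kcnma1, which rose by 0.92 ± 0.24 (adjusted p = 0.00497), with 6 of 8 arrays of 180 days above all those of 90 days. The call was lost without replicate 1, 6 or 8 of 90 days or replicate 1 or 2 of 180 days, with values between 0.83 and 0.90.

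Ordered by mean level, most neighboring groups lay closer than the larger of their SDs. For Kcnma1 the order was BAM at 30 days (-0.01), BAM at 7 days (-0.42), ASCs at 180 days (-0.61), ASCs at 30 days (-0.77), BAM at 90 days (-1.23), BAM at 180 days (-1.48), ASCs at 90 days (-1.53) and ASCs at 7 days (-2.53). There, ASCs at 30 days and BAM at 90 days were separated by more than 1 SD, as were ASCs at 90 days and ASCs at 7 days. For Itpr1 the 4 groups of 90 and 180 days, at 2.30 to 2.46, were set off from ASCs at 30 days, at 1.60, by 0.70 against an SD of 0.48. For Kcnj8 BAM at 7 days, at 2.22, was set off from ASCs at 7 days, at 1.70. For Kcnmb1, Cacna1c, Atp2a2 and Pln no neighbors in the order were separated by more than 1 SD.

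Each gene was also set against muscle genes on its own array. Lmod1 and Cald1 were the contractile genes of the list that no array saturated and that all 64 measured above background, and their mean was subtracted. These genes did not always move together. In BAM from 7 to 30 days the mean of Cald1 went from 1.52 to 0.85 and that of Lmod1 from -3.41 to -1.98, while both were higher at 90 days than at 30 days. By two-sided exact permutation, adjusted over 40 tests of 10 genes at 4 days and called below 0.05, 8 were called. Kcnma1 was lower with ASCs at 7 days by -2.28 (adjusted p = 0.0124) and at 30 days by -0.78 (adjusted p = 0.0218) and higher at 180 days by 1.18 (adjusted p = 0.0295), each by exact permutation. The ranges of the grafts overlapped in all 3. With the second Kcnma1 probe the value at 7 days was 0.11 (adjusted p = 0.955) and at 180 days 0.28 (adjusted p = 0.581), and at 30 days it was 0.78 (adjusted p = 0.00932), a call in the opposite direction, again by exact permutation. With the brightest probe the 3 calls were kept, at -2.20, -0.75 and 1.14, when 6 contractile genes saturated on at most 2 arrays were used, an alternative chosen after the data were seen.

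The other 5 calls were Kcnj8 at 7 days (-0.70) and 90 days (-0.76), Atp2a2 at 90 days (-0.89), Pln at 180 days (-0.65) and Cacnb2 at 90 days. Cacnb2 was well above background on 0 of the 16 arrays of that day, so its call compares background levels and its value is not given. Each of the 5 was lost with some single arrays left out, 8 to 11 of 16. With the 6 genes 4 of 40 were called, the 3 of Kcnma1 and that of Cacnb2, and those of Kcnj8, Atp2a2 and Pln were lost. At 90 days 3 of 11 contractile genes had been called higher with ASCs, namely Actg2, Myh11 and Tagln, with a list median of 0.55. Of all 30367 probes, 1178 were called higher there. Actg2 was saturated on all 16 arrays of that day, Myh11 on 15 and Tagln on 10.

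Within groups the 10 genes differed in how far they went with the contractile genes from array to array. After group means were taken off, Kcnmb1 correlated with the mean of those 6 contractile genes at r = 0.86 (Spearman's rho 0.82) over 64 arrays, Pln at 0.82 (rho 0.86), Cacna1c at 0.79 (rho 0.79) and Itpr1 at 0.68 (rho 0.62). Values were lower for Kcnj8, with r = 0.65 and rho 0.46, Atp2a2, with 0.59 and 0.47, and Abcc9, with 0.41 and 0.33. For Cacnb2 r was 0.12, for Kcnma1 0.02 and for Ryr2 -0.30. Among the 10 genes Kcnmb1 and Cacna1c were closest (r = 0.83), while Kcnma1, again by its brightest probe, and Kcnmb1 had r = 0.04. All these values share the array, its scaling and its slide, and are descriptions only. One array, BAM replicate 5 of 90 days, was the highest of its group in Kcnmb1 (-0.49), Cacna1c (0.23), Kcnj8 (2.89), Itpr1 (3.20), Atp2a2 (4.50) and Pln (3.05), and also in the mean of the smooth muscle list (3.67). The same array was the lowest of its group in the urothelium list mean (0.58, with the others from 1.89 to 3.41). Without it r with the contractile mean was 0.57 for Kcnj8, 0.49 for Atp2a2 and 0.34 for Abcc9, and 0.84 for Kcnmb1.

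By the same measure, over 5220 genes, the gene most like the mean of the 10 was Pkig (r = 0.91), then Kctd15, Ppp1r12c, Adarb1 and Dact3 (0.89 to 0.90). For single genes, each by its brightest probe only, it was Polm for Kcnma1 (r = 0.92) and Rbpms for Kcnmb1 (0.88). Cacna2d1, an auxiliary subunit of voltage-gated calcium channels, was closest for Kcnj8 (0.84), Galnt18 for Abcc9 (0.74) and Pdlim7 for Cacna1c (0.92). For the rest it was Foxo4 for Cacnb2 (0.68), Otof for Ryr2 (0.87), Crebl2 for Itpr1 (0.85), Tigar for Atp2a2 (0.81) and Fbxl22 for Pln (0.87).

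Related genes outside the 10 were counted by list. Of all probes, 7.73%, 1.67%, 12.5% and 2.44% were called between the grafts in either direction at 7, 30, 90 and 180 days. Of 21 other potassium channel genes 1 was higher and 3 were lower with ASCs at 7 days, 2 were lower at 90 days, and 0 were called at 30 and 180 days by limma, with list medians of -0.27, -0.02, -0.61 and -0.04. Kcnh2, the pore of an ERG channel, rose at 7 days by 1.52 ± 0.42 (adjusted p = 0.00669), from a range of -6.34 to -2.51 in BAM to one of -3.15 to -1.42 with ASCs, which overlap. Kcnmb3, another auxiliary subunit of the large conductance channel, fell by 1.37 ± 0.24 (adjusted p = 2.96e-05). Its level ran from -4.69 to -4.19 in BAM and from -6.28 to -4.53 with ASCs, so the ranges overlapped.

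Kcnq3, a subunit of the M-type channel, was well above background on 7 of 8 BAM arrays at 7 days and on 0 with ASCs, where it was at least 3.09-fold lower (adjusted p = 1.48e-05). Kcnk3, a background potassium channel, fell by 0.75 ± 0.18 (adjusted p = 0.00177), and it is named although it fell outside the rule for names and was chosen after its values were seen. At 90 days Abcc8 and Kcnmb3 were called lower with ASCs, but Abcc8 was well above background on 0 of 8 arrays there and on 2 of 8 in BAM, and Kcnmb3 on none of the 16 arrays, so no fold is given. The second Ryr2 probe, never well above background, also had a lower mean with ASCs on that day, at -6.01 against -5.02 in BAM.

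Of 20 other calcium entry genes 1 was called, at 7 days, and 0 at the later days by limma, with list medians of -0.12, 0.04, 0.00 and 0.01. It was Cacnb3, an auxiliary subunit of voltage-gated calcium channels, which fell by 0.59 ± 0.15 (adjusted p = 0.00376), from 0.40 to 1.77 in BAM to 0.07 to 0.57 with ASCs. Of 16 other genes of calcium stores and extrusion 1 was higher and 1 lower at 7 days, 2 were lower at 90 days and 0 were called at 30 and 180 days, with list medians of -0.12, -0.09, -0.06 and -0.00. Of all probes 7.73% were called at 7 days and 12.5% at 90 days, in either direction.

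Fkbp1b, which binds and steadies the ryanodine receptor, fell with ASCs at both of these days. At 7 days it was at -1.64 to -0.98 in BAM, with a median of -1.34, and at -2.56 to -1.94 with ASCs, with a median of -2.31, a difference of -0.99 ± 0.12 (adjusted p = 8.77e-09). At 90 days it was at -2.23 to -1.09 in BAM and -2.88 to -2.49 with ASCs, a difference of -1.08 ± 0.12 (adjusted p = 1.96e-10). Groups did not overlap at either day, while at 180 days its mean was higher with ASCs, at -2.11 against -2.67 in BAM, and was not called. The graft difference of Fkbp1b moved by 1.64 ± 0.17 from 90 to 180 days (adjusted p = 1.56e-11 by limma). From 7 to 180 days it moved by 1.55 ± 0.17 (adjusted p = 2.32e-10 by limma). Itpr3, another inositol trisphosphate receptor, rose at 7 days by 0.68 ± 0.17 (adjusted p = 0.00313), from -2.84 to -1.61 in BAM to -1.85 to -1.15 with ASCs. Sln, sarcolipin, another inhibitor of the pump, was called lower at 90 days (-1.097, adjusted p = 0.00615) but was not well above background on any of the 16 arrays.

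Some markers of other muscle were well above background, and those described here were chosen after their values were seen. Of 6 heart muscle genes, Tnnt2, cardiac troponin T, and Actc1, cardiac actin, were well above background on all 8 arrays of each group. Tnnt2 had group means of 3.26 to 5.72 and was saturated on 8 of 8 BAM arrays at 90 days and 7 of 8 at 180 days, and Actc1 had group means of 0.23 to 1.68. The heart myosin genes Myh6 and Myh7 were well above background on at most 5 and 2 of 8 arrays of a group. Of 8 skeletal muscle genes 2 to 5 were well above background on all 8 arrays of a group, among them Acta1, with group means of -1.63 to -0.36, and Ckm, with -3.47 to 0.16. Neither list had a gene called between the grafts at any day by limma, where 1.67% to 12.5% of all probes were called. The part of other muscle in the values of the 10 genes was not tested. Among pericyte markers Pdgfrb fell by 0.69 at 7 days (adjusted p = 0.00633), 1 of 6, where 7.73% of all probes were called. That list's mean ran from -0.61 to 0.44 in BAM and from -0.52 to 0.06 with ASCs. In BAM from 7 to 30 days, where Kcnj8 was called lower, 3 of 6 pericyte genes were too (list median -0.77). At the same step 4 of 5 endothelium genes were called lower (list median -1.03), as were 4.21% of all probes. The part of pericytes and vessels in the Kcnj8 and Abcc9 values, genes that these cells also express, was not tested.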

How the data were processed

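Total RNA of 64 reconstructed bladder walls, labelled with Cy3, was hybridised to one-color Agilent rat arrays of 62976 spots, of which 4259 were control spots. The authors deposited the scanner intensity of each spot as Agilent Feature Extraction software wrote it, background corrected within the array and not scaled between arrays. The authors' value table, whose making is not given in the sources used here, holds linear intensities on the same scale and was used only as an alternative. Its columns matched the scanner values apart from 3, and 1 array had missing values. The 3 columns were replicates 2, 3 and 4 of ASCs at 7 days, with a median absolute log2 difference of 3.30 to 3.31. Results from the value table at 7 days include these columns. The array with missing values was BAM replicate 1 of 180 days.

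Outlier spots and control spots were left out, log2 of the processed signal was taken, the 75th percentile of each array was subtracted and replicate spots were averaged per probe. Well above background means that 0.5 or more of the probe's spots carried that mark on the array. Of 30367 probes, 22372 carried a RefSeq accession and 18758 were named through RefSeq. All 8 groups were fitted together in limma 3.58.1 (R 4.3.3), with Benjamini-Hochberg adjustment over all probes, and called where the adjusted p was below 0.01 with a fold over 1.5. Differences within an array were compared by exact permutation (scipy 1.17.1, Python 3.11.15). Fits were tested on simulated data.

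The 10 genes and all gene lists were chosen with earlier results of these data known. Each gene was represented by its brightest probe, and other probes are given where a call or a sign differed. The rule for genes of other lists was to name those called between grafts, at most 4 a list, by size of difference. Exceptions were Kcnk3, the smooth muscle genes Acta2, Cnn1, Ldb3, Mylk, Lmod1 and Cald1, and the markers of other muscle. Likeness was ranked by Pearson's r after group means were subtracted. Alternatives were quantile normalization, normexp correction (offset 50), another percentile, the value table, outlier spots kept, dim probes left out, the next brightest probe, a separate fit, ordinary least squares, a replicate block, a looser threshold and each array left out. Precision is limited by the number of arrays. The authors' own comparisons were not used.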

Additional observations from a re-analysis of the deposited data

Results flagged for a closer look

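Within groups of 8, Dixon's test marked 3 of 80 combinations of gene and group, where chance marks about 1 in 20. Kcnma1 in replicate 8 of ASCs at 7 days, at -3.13, lay below the rest of its group. Kcnj8 in replicate 2 of BAM at 7 days, at 3.25, lay above the rest of its group, and that array also had the highest smooth muscle list mean of the group, 2.20. Cacnb2 in replicate 1 of ASCs at 30 days, at -3.61, lay above the rest, on a probe that was well above background on 3 arrays of that group.

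The graft difference of Kcnma1 by its brightest probe changed between days by a test of that change. It moved by 1.17 from 90 to 180 days and by 2.99 from 7 to 180 days, the latter added after the data were seen. With the second probe the same changes were -0.52 and -0.31 and were not called.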

How the results depend on the processing

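The difference of Kcnma1 at 7 days stayed called under every alternative except the next brightest probe, with values from -2.25 to -1.90 when single arrays were left out. For the rest the cause of a change was not tested, unless the alternative itself tests fewer genes or arrays.

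With the looser threshold (adjusted p below 0.05, no fold) 2, 1 and 1 of the 10 genes were called between grafts at 7, 30 and 180 days, 1 in BAM from 90 to 180 days, and 1, 1 and 2 for the change of the graft difference from 7 to 30, 30 to 90 and 7 to 180 days. The change from 90 to 180 days gave 0 calls by normexp, quantile normalization, the percentile over detected probes, the value table and the next brightest probe. With ASCs from 7 to 30 days 1 was called by normexp, quantile, the value table, a separate fit, with dim probes left out and with the next brightest probe. Quantile normalization called 1 in BAM from 90 to 180 days, the separate fit 1 at 30 and 1 at 180 days, and leaving dim probes out 1 at 180 days. With the next brightest probe 0 were called at 7 days and 1 at 90 days, 1 in BAM from 7 to 30 days, 0 with ASCs from 90 to 180 days and 0 for the change from 7 to 180 days. The wider contractile reference gave 4 calls.

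Signs turned with the next brightest probe for Kcnma1 (0.28, 0.80, 0.49 and -0.024 at the 4 days, 1.502 and 1.19 from 30 to 90 days in BAM and with ASCs, -0.52 and -0.31 for the changes from 90 and from 7 to 180 days, 0.11 and 0.78 relative to contractile genes at 7 and 30 days, and -0.31 for Kcnmb1 minus Kcnma1 at 30 days), Ryr2 (0.072, -0.98 and 0.10 at 30, 90 and 180 days, never above background), Itpr1 (-0.062 and -0.20 at 30 and 180 days), Cacna1c (-0.27 and 0.25 at 90 and 180 days) and Abcc9 (0.26 at 180 days). They turned by normexp for Cacnb2 (0.044 and 0.046 at 90 and 180 days), Itpr1 (-0.021 at 30 days) and Abcc9 (-0.00174 at 30 days), by quantile for Cacnb2 (0.18 and 0.36 at 7 and 90 days) and Cacna1c (-0.00676 at 30 days), by the value table for Cacnb2 (0.69 at 7 days) and by the other percentile for Ryr2 (0.040 at 7 days). Of these, Kcnma1 from 30 to 90 days in both grafts and relative to contractile genes at 30 days was called with both probes, in opposite directions. In BAM its second probe was well above background on 2 of 8 arrays at 90 days. The other Kcnma1 values of 7 days, of the changes to 180 days and of Kcnmb1 minus Kcnma1 were called with the brightest probe only, Ryr2 at 90 days with its second probe only, and the rest under neither setting.

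With single arrays left out, sign-changing ranges were -0.44 to 0.024 for Cacnb2 and -0.14 to 0.037 for Ryr2 at 7 days, -0.042 to 0.096 for Abcc9 and -0.041 to 0.063 for Itpr1 at 30 days, -0.19 to 0.11 for Kcnj8 and -0.018 to 0.20 for Itpr1 at 90 days, and -0.017 to 0.18 for Kcnj8, -0.15 to 0.024 for Abcc9, -0.093 to 0.042 for Ryr2 and -0.027 to 0.12 for Itpr1 at 180 days. Counts of called genes ran from 0 to 1 in BAM and with ASCs from 90 to 180 days, 1 to 2 and 3 to 5 with ASCs from 7 to 30 and 30 to 90 days, 0 to 1 and 0 to 1 for the changes from 7 to 30 and 90 to 180 days and 1 to 2 from 7 to 180 days, 2 to 5 of 20 for pairs and 3 to 12 of 40 relative to contractile genes.

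Same-numbered arrays of both grafts correlated in their deviations from -0.47 to 0.53. Of 8, 0, 2, 1 and 0 matched their own number best at 7, 30, 90 and 180 days. No pairing by number was apparent, and this check cannot exclude a weak one. With the replicate block 0 of the 10 genes were called for the change from 90 to 180 days, 0 of 20 pairs and 0 of 40 differences relative to contractile genes, where the smallest p that sign flips of 8 pairs allow is 0.00781 before adjustment. Dim probes limit Cacnb2 at all days and Kcnmb1 in BAM at 90 days, where 4 of 8 arrays were well above background.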
